A study of Mus musculus with 8 samples.

Results

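Members of the sodium-potassium ATPase family were followed through all 8 RNA sequencing libraries, namely the beta subunits Atp1b1, Atp1b2 and Atp1b3, and the FXYD proteins Fxyd1 and Fxyd6. These 5 genes were selected on earlier results of the same libraries, so their differences between genotypes are given as a description. No p-value is given for a member, and counts of members that passed a threshold are printed without being read as evidence. They stand among 47729 genes in the table of the neural stem cells (NSC) and 40562 in that of the astrocytes (AST), and 15 genes in all carry the name of an alpha, beta or FXYD subunit.

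The study compared wild type (WT) C57BL/6 mice with S89G-DMP1 knock-in mice, in which the serine of dentin matrix protein 1 that carries a glycosaminoglycan chain was replaced by glycine. The mutation was placed in Dmp1 by homologous recombination in embryonic stem cells of C57BL/6J origin and bred to homozygosity, so it was present in every cell and no promoter or Cre limited it to a tissue. Astrocytes came from dissociated cortex grown in medium with 10% fetal bovine serum, with 1 library per genotype. NSCs of the sub-ventricular zone were grown as neurospheres in serum-free medium with N2 supplement, with 3 libraries per genotype. Every sample is labelled with an age of 10 weeks, while the methods give an age in months for the mice used for astrocytes. The sources used here do not say whether the 3 NSC libraries of a genotype came from separate mice, so the spread between them may be technical.

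The sodium-potassium ATPase is the pump that moves sodium out of cells and potassium in at the expense of ATP, and it sets the gradients that channels and sodium-coupled transporters run on. Its alpha subunit holds the ion and ATP binding sites, its beta subunit is a glycoprotein needed to fold the pump and bring it to the plasma membrane, and small FXYD proteins bind the complex and tune its affinity for ions. Cells draw on several beta and FXYD genes, and in brain Atp1b2 was first described as the adhesion molecule on glia (AMOG).

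Atp1b1, the beta subunit found most widely across tissues, lies on the minus strand at chr1:164437109-164458355 of GRCm38. Atp1b2 lies at chr11:69599736-69605942 and Atp1b3 at chr9:96332655-96364442, both on the minus strand. Fxyd6, also known as phosphohippolin, lies on the plus strand at chr9:45370185-45396159 and is followed by Fxyd2. Fxyd1, or phospholemman, lies on the minus strand at chr7:31051678-31057199, in a row with Fxyd5, Fxyd7 and Fxyd3. Of these 5 protein-coding genes, only Atp1b1 shared exon bases with a neighbour in the annotation: 575 bases (18.7% of its exon bases) were shared with Nme7 on the opposite strand. The library kit does not mark strand, so reads from the shared bases cannot be told apart between Atp1b1 and Nme7. Nme7 held 25 to 49 counts in the NSC libraries, against 207 to 258 of Atp1b1, and 226 and 315 in the WT and S89G-DMP1 astrocyte libraries.

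The 250 bases before the start site are shown for Atp1b1 and Fxyd6, which were higher in the S89G-DMP1 astrocyte library, and for Atp1b3, which was lower there. RefSeq on GRCm38.p6 held such a sequence for 4 of the 5 members. Capitals mark a GC box (GGGCGG, or CCGCCC on the other strand) and a CCAAT box (CCAAT or ATTGG), 2 motifs searched on both strands that do not overlap each other, and all are written 5′ to 3′ on the strand of the gene.
Atp1b1, chr1:164458356-164458605, minus strand: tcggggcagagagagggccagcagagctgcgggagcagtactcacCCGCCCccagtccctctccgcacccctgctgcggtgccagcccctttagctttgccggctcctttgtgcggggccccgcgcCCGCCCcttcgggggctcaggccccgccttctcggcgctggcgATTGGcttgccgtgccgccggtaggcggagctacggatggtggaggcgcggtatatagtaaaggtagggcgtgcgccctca
Atp1b3, chr9:96364432-96364681, minus strand: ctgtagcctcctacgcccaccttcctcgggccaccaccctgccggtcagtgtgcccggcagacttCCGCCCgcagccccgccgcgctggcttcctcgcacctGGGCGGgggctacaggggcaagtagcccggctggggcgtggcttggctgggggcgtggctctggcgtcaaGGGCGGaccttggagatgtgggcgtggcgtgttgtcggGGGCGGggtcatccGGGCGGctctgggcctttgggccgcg
Fxyd6, chr9:45369935-45370184, plus strand: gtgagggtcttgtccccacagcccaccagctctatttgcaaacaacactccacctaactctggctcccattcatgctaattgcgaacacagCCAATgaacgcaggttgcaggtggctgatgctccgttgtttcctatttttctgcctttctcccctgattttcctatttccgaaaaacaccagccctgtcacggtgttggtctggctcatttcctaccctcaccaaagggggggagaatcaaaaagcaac
The Atp1b1 window held 2 GC boxes and 1 CCAAT box, with 24 CpG and 70.4% G and C. The Atp1b3 window held 5 GC boxes and no CCAAT box, with 24 CpG and 73.6% G and C. A second start of Atp1b3, chr9:96363716-96363965, had 35 CpG and neither motif. The Fxyd6 window held 1 CCAAT box and 5 CpG, with 50.4% G and C, and that of Fxyd1 held neither motif and 3 CpG. Among all 32851 windows of this length, 32.7% held a GC box and 33.9% a CCAAT box, and the median was 6 CpG and 52.4% G and C. The TATA box (TATAAA), present in 12.4% of all windows, was not in these letters for any of the 4 members. The 2 beta subunit genes thus had windows rich in CpG and the 2 FXYD genes had not, while the direction in astrocytes did not follow this split.

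Total counts on genes were 2354615 to 2588130 per NSC library, 14008670 in the WT and 13016924 in the S89G-DMP1 astrocyte library. The TMM factors of edgeR were used to turn counts into CPM, a gene's counts as a proportion of the effective size of its library. The NSC label was met by part of its markers: Sox2 held 747 to 890 counts, Nes 4572 to 5460 and Fabp7 2184 to 3450 in each library. Pax6 held 64 to 96, and Hes5 (5 to 14) and Prom1 (3 to 14) were low. Gfap held at most 6 counts, and the microglia genes Csf1r, Cx3cr1 and Itgam were at 0. Genes listed for astrocytes or neurons were also abundant, with Slc1a3 at 2099 to 2668, Aldh1l1 at 710 to 1573 and Map2 at 2747 to 2897 counts. The astrocyte label was met only in part in the WT library, which held 8 counts of Aqp4, 8 of Slc1a3 and 53 of Aldoc against 10196 of the fibroblast gene Dcn. The S89G-DMP1 library held 4051, 3877 and 1838 counts of these astrocyte genes and 2826 of Dcn. Other astrocyte genes were not lower in WT to this extent: Glul had 4247 counts in WT and 3709 in S89G-DMP1, S100b 64 and 30, and Gja1 1165 and 1913. The fibroblast gene Col1a1 was abundant in both, with 27329 and 22501 counts. The astrocyte libraries also differed in sex genes, with 12172 counts of Xist and 0 of Ddx3y in WT against 74 and 1277 in S89G-DMP1, so genotype, sex and culture cannot be told apart there, and with 1 library per genotype no astrocyte result can be given without the WT library. All 6 NSC libraries held both Xist and Ddx3y.

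In NSCs, the level of the members differed little between genotypes. Atp1b2 was the most counted member. Its CPM was 234, 230 and 228 in the WT libraries and 241, 246 and 218 in the S89G-DMP1 libraries. The S89G-DMP1 libraries lay on both sides of WT, and the means were 231 ± 2.76 and 235 ± 14.9 (SD, n = 3 each), a log2 fold change of 0.02 with a standard error (SE) of 0.06.

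Atp1b1 had a CPM of 87.2, 100.2 and 93.9 in WT and of 93.1, 89.02 and 102 in S89G-DMP1. These libraries were interleaved, with means of 93.8 ± 6.50 and 94.8 ± 6.79 and a log2 fold change of 0.02 (SE 0.09). Atp1b3, the beta subunit also known as CD298, had a CPM of 113, 115 and 107 in WT and of 116, 132 and 121 in S89G-DMP1. Its groups did not overlap, but the gap between the highest WT and the lowest S89G-DMP1 library was small beside the spread within S89G-DMP1. Its means were 112 ± 4.06 and 123 ± 8.19 CPM and its log2 fold change 0.14 (SE 0.08).

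Fxyd6 was the only FXYD gene with more than 3 counts in any NSC library. It had a CPM of 63.2, 63.3 and 73.1 in WT and of 60.2, 64.6 and 62.6 in S89G-DMP1, with a log2 fold change of -0.09 (SE 0.10). Library 3 of WT stood above the other 5, which lay within a few CPM of each other. Fxyd1 had 0 counts in all 6 NSC libraries, and a count of 0 allows up to 3 counts, or 1.16 to 1.27 CPM per library. Fxyd2, Fxyd3, Fxyd5 and Fxyd7 were also at 0 in all 6 NSC libraries.

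Of the 4 members with enough counts for the fit across 11194 genes, 0 were called higher and 0 lower by edgeR's quasi-likelihood test at an adjusted p of 0.05, where 7.08% of all genes were called higher, 8.76% lower and 15.8% in either direction. At an unadjusted p under 0.05 the count was also 0 of 4, against 3112 of all genes (27.8%), and it was 0 of 4 at the adjusted threshold with DESeq2 and limma. The WT and S89G-DMP1 libraries did not overlap for 1 of the 4 members, Atp1b3, and for 30.7% of all genes. The median log2 fold change was 0.02 over the 4 members and 0.0026 over all genes. The members were selected with these results known, so their counts are not read against those shares.

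**Figure D1:**
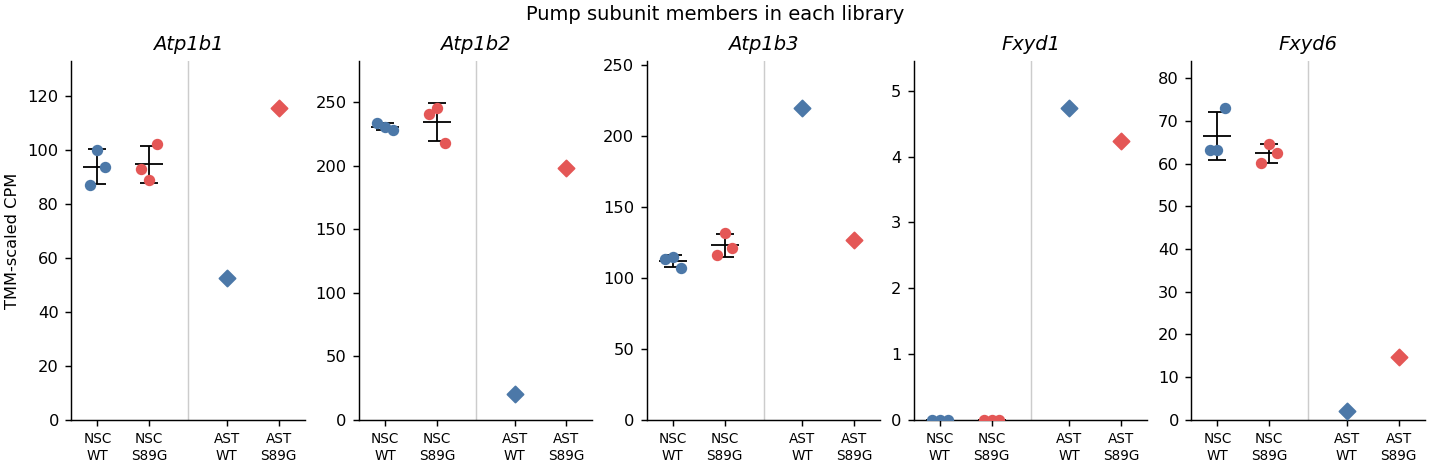
TMM-scaled CPM (vertical axis from 0, its own range for each gene) of the 5 members in the 3 WT and 3 S89G NSC libraries (circles, black bars for mean ± SD) and in the single WT and S89G astrocyte (AST) libraries (diamonds). NSC circles of the 2 genotypes lie close together for each member, with Fxyd1 at 0, while the astrocyte diamonds of Atp1b2 are far apart (20.4 and 198 CPM).

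To compare subunits with each other, gene lengths were taken as the deposited FPKM values imply them. FPKM was deposited for astrocytes only, so lengths from the astrocyte pipeline were also used for NSCs. CPM divided by these implied lengths gives CPM per kilobase. On this scale the beta subunits were mixed in similar shares in NSCs of both genotypes, with mean shares that differed by less than 2 percentage points. Atp1b2 took 38.0% ± 0.970 of the 3 beta subunits in WT and 37.0% ± 1.98 in S89G-DMP1 (SD, n = 3 each). Atp1b3 took 35.7% ± 0.833 and 37.6% ± 1.58, and Atp1b1 took 26.3% ± 1.44 and 25.5% ± 2.30. Atp1b1 was the lowest of the 3 in every NSC library with these lengths and with exon lengths. With the authors' TPM, however, its mean share was above that of Atp1b2, at 28.2% against 25.8% in WT and 30.05% against 25.5% in S89G-DMP1. Atp1b2 and Atp1b3 were neighbours whose order was not settled. The level of Atp1b2 was 125 to 128 in WT, above the 114 to 122 of Atp1b3, while in S89G-DMP1 the 119 to 135 of Atp1b2 and the 123 to 141 of Atp1b3 overlapped. With the exon length of the annotation Atp1b2 stood above Atp1b3 in both genotypes, at 42.3% against 34.9% in WT and 41.1% against 36.8% in S89G-DMP1. With the authors' TPM the mean share of Atp1b3 stood above that of Atp1b2 in both, at 46.01% against 25.8% in WT and 44.4% against 25.5% in S89G-DMP1. In library 3 of each genotype, however, Atp1b2 was the higher, at 166 against 139 TPM in WT and 154 against 153 in S89G-DMP1.

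**Figure D2:**
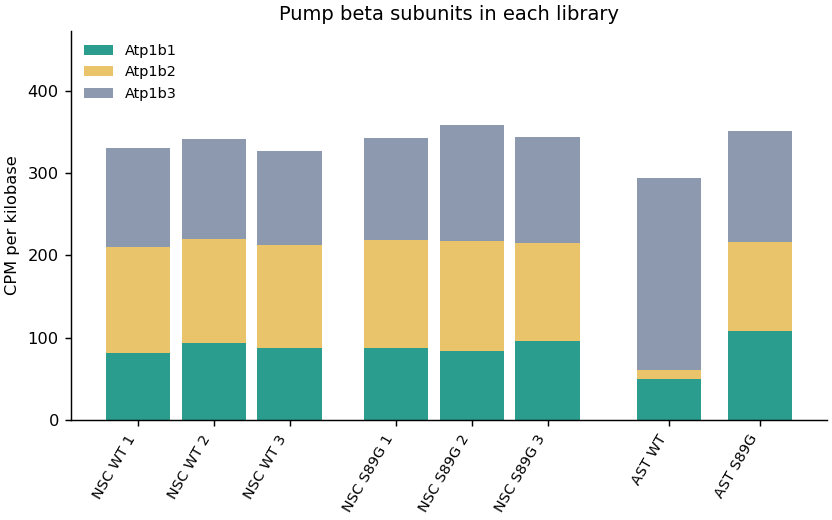
CPM per kilobase (vertical axis from 0) of the 3 beta subunits, stacked for each of the 6 NSC libraries and the 2 astrocyte (AST) libraries, with lengths implied by the deposited FPKM values. The NSC stacks of both genotypes are alike, and the WT astrocyte stack is mostly Atp1b3 (79.5%).

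In the astrocyte libraries, the members differed between genotypes in both directions. With 1 library per genotype there is no replicate check, and the intervals cover counting error only. Ratios were taken between CPM values, and log2 ratios with 2 counts added as a prior. Atp1b2 was the lowest of the 3 beta members in WT, with 258 counts or 20.4 CPM (95% exact Poisson interval 18.0 to 23.0), and had 2852 counts or 198 CPM (191 to 206) in S89G-DMP1. This was a ratio of 9.72 (95% interval 8.56 to 11.1), the largest among the members. Atp1b1 had 666 counts or 52.6 CPM (48.7 to 56.8) in WT and 1664 counts or 116 CPM (110 to 121) in S89G-DMP1, a ratio of 2.20 (2.01 to 2.41).

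Atp1b3 went the other way. It was the most abundant beta in WT, with 2780 counts or 220 CPM (212 to 228), and had 1817 counts or 126 CPM (121 to 132) in S89G-DMP1, which was 1.74-fold lower. Fxyd6 had 25 counts or 1.98 CPM (1.28 to 2.92) in WT and 211 counts or 14.7 CPM (12.8 to 16.8) in S89G-DMP1, a ratio of 7.42 (4.89 to 11.7). Fxyd1, the regulator best known from heart and muscle, had 60 and 61 counts, or 4.74 CPM (3.62 to 6.10) and 4.24 CPM (3.24 to 5.45). The interval of its ratio, 0.616 to 1.30, included no difference, and its log2 ratio was -0.16 with TMM and 0.13 with library size alone.

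At least 2-fold higher in S89G-DMP1 were 3 of the 5 members (Atp1b1, Atp1b2 and Fxyd6), where 17.3% of the 15680 genes counted were, and 0 of 5 were at least 2-fold lower, where 12.8% of all genes were. Scaled by library size only, these counts of members were also 3 and 0, and of all genes at least 2-fold apart 69.7% were higher in place of 57.4%. The median log2 ratio of the 5 members was 1.13, against 0.01 over all genes, or 1.42 against 0.30 with library size alone. The members were selected with these ratios known, so nothing is read from the comparison of shares. Fewer cells of a type and less RNA per cell cannot be told apart in such bulk libraries.

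The beta mixture of the astrocyte libraries differed accordingly. Per length, Atp1b3 made up 79.5% of the betas in WT and 38.3% in S89G-DMP1. Atp1b2 made up 3.79% in WT and 30.9% in S89G-DMP1, and Atp1b1 made up 16.7% and 30.8%. The shares of the S89G-DMP1 astrocyte library were nearer to those of the NSCs than the shares of the WT library were, although the NSC and astrocyte tables were made by different pipelines, which limits a comparison of levels between them. In the S89G-DMP1 library Atp1b1 and Atp1b2 were at the same level (108 and 109 CPM per kilobase) with the implied lengths and at 37.6 and 48.5 with exon lengths, so their order was not settled.

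Among the FXYD genes, Fxyd5 (dysadherin) was the most abundant, with 1269 and 458 counts, and made up 90.6% of the FXYD level in WT and 67.3% in S89G-DMP1. Fxyd6 made up 0.872% and 15.1% and Fxyd1 6.38% and 13.4%. With exon lengths Fxyd6 made up 1.72% and 25.6%, Fxyd1 7.75% and 13.9%, and Fxyd5 85.4% and 54.4%. Fxyd2, Fxyd4 and Fxyd7 held at most 12 counts in either astrocyte library.

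**Figure D3:**
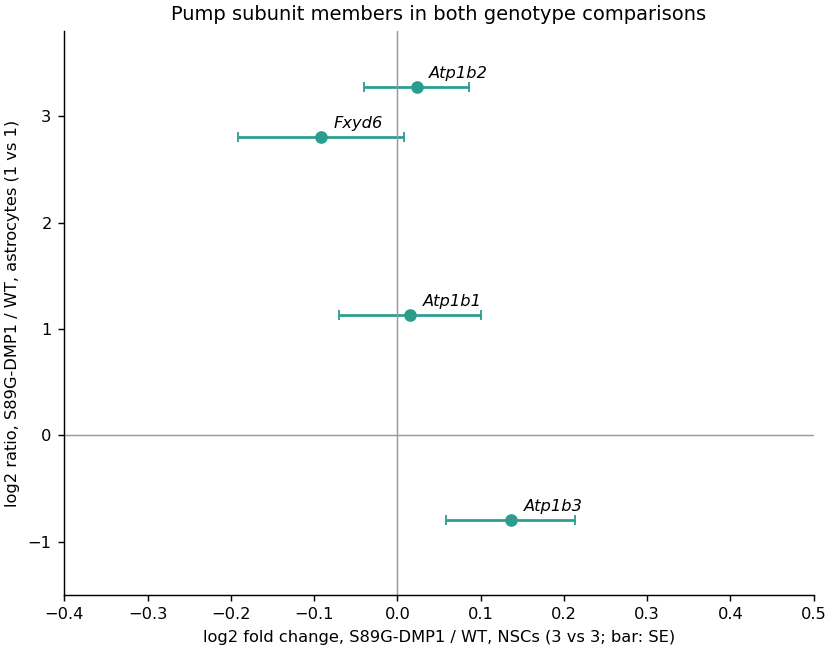
Log2 fold change between S89G-DMP1 and WT NSCs (horizontal axis, 3 against 3 libraries, bars for 1 SE) and log2 ratio of the S89G-DMP1 to the WT astrocyte library (vertical axis, 1 against 1, no error bar) for the 4 members tested in NSCs (circles). On the narrower horizontal scale the members lie between -0.09 (Fxyd6) and 0.14 (Atp1b3), and they run from -0.80 (Atp1b3) to 3.27 (Atp1b2) on the vertical axis.

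Markers of cell types moved with the astrocyte ratios of Atp1b2, Atp1b1 and Fxyd6. The summed level of 12 astrocyte genes came to 515 CPM in WT against 1553 CPM in S89G-DMP1, with 8 of 11 counted genes at least 2-fold higher and Gjb6 at 0 in at least 1 library. For 9 neural progenitor genes the sums were 846 and 2239 CPM, with 6 of 8 counted genes at least 2-fold higher and Hes5 at 0 in at least 1 library. The 8 fibroblast genes summed to 5106 CPM in WT against 2111 CPM in S89G-DMP1, with 5 of 8 at least 2-fold lower and none at 0. Endothelial genes summed to 200 and 72.0 CPM, with Cldn5 and Tie1 at 0 in at least 1 library. Of 6 counted, 4 were at least 2-fold lower and 1 higher. The lower sum came from Cdh5 (152 and 1.60 CPM), while Flt1 (31.9 and 54.9) and Kdr (6.01 and 12.8) were higher. Mural genes summed to 3310 and 4023 CPM with Kcnj8 at 0 in at least 1 library. The higher sum came from Acta2 (723 and 2471 CPM), and of 7 counted genes 1 was at least 2-fold higher and 3 lower. The lower ones were Rgs5 (192 and 2.71 CPM), Pdgfrb (930 and 158) and Myh11 (31.8 and 2.57). Microglia genes summed to 582 and 852 CPM with none at 0, and 3 of 8 were at least 2-fold higher and 1 lower. Further lists summed to 98.4 and 302 CPM for neurons, 81.1 and 93.3 CPM for oligodendrocytes, and 7.19 and 227 CPM for choroid plexus and ependyma. The last difference came almost all from Foxj1 (0.474 and 213 CPM). Over all genes counted, 17.3% were at least 2-fold higher and 12.8% lower. The part of these markers in the ratios of the pump subunits was not tested.

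**Figure D4:**
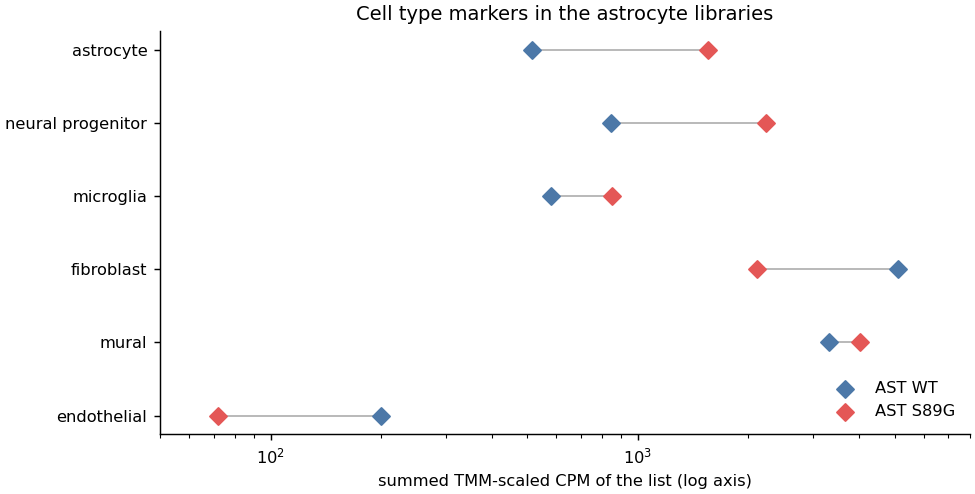
Summed TMM-scaled CPM (horizontal log axis) of marker lists of 6 cell types in the WT and S89G astrocyte (AST) libraries, 1 diamond per library with a line joining the pair. Astrocyte, neural progenitor, microglia and mural sums are higher and fibroblast and endothelial sums lower in the S89G library. The mural sum is higher through Acta2, while 3 of 7 counted mural genes are at least 2-fold lower, and the endothelial sum is lower through Cdh5.

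In NSCs, where beta and FXYD members were level, the marker sums of the astrocyte list lay between 1934 and 1983 CPM in WT and between 2489 and 2536 CPM in S89G-DMP1, and 4 of 9 tested genes were called, each of them higher. Of 8 tested progenitor genes, 3 were called, each of them higher. Over all genes, 7.08% were called higher and 8.76% lower. Beside these markers, the log2 fold change of Atp1b2, which is also known from glia, was 0.02 in the same libraries.

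Other genes that work with the pump were taken from 4 lists. The lists were chosen with earlier results known, so their counts are a description only. Over all genes, 7.08% were called higher and 8.76% lower in NSCs. In astrocytes 17.3% of all genes were at least 2-fold higher and 12.8% lower. Of 24 sodium-coupled transporters, which spend the sodium gradient, 8 were called higher and 1 lower in S89G-DMP1 NSCs, and 11 were at least 2-fold higher and 3 lower in the astrocyte library. Slc4a4, a sodium bicarbonate cotransporter, had 56.1 ± 4.88 CPM in WT NSCs against 136 ± 9.64 CPM in S89G-DMP1 NSCs, a log2 fold change of 1.27 (SE 0.09, edgeR adjusted p = 1.07e-18), and had 432 and 3449 counts in astrocytes. The glycine transporter Slc6a9 (log2 fold change 1.07, edgeR adjusted p = 8.36e-09) and the GABA transporter Slc6a11 (0.89, edgeR adjusted p = 9.08e-16) also rose in NSCs. The glutamate transporter Slc1a3, which is an astrocyte marker too, had a log2 ratio of 8.43 in astrocytes (8 and 3877 counts). The amino acid transporter Slc38a3 had 6.25 (9 and 938) and the sodium-calcium exchanger Slc8a2 had 4.62 (5 and 190). These ratios rest on few WT counts.

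Of 8 potassium channels and cotransporters of glia, 2 were called higher and 3 lower in NSCs, and 4 were at least 2-fold higher and 0 lower in astrocytes. Kcnj10, the inward rectifier Kir4.1 that takes up potassium together with the pump, rose in NSCs (log2 fold change 0.52, edgeR adjusted p = 0.000246) and had 62 and 1924 counts in astrocytes. The leak channels Kcnk10 and Kcnk2 fell in NSCs by 1.54 and by 0.90 on the log2 scale (edgeR adjusted p = 0.00214 and 5.69e-08). Kcnk10 held only 14 to 20 counts in WT and 3 to 7 in S89G-DMP1 NSCs. In astrocytes the log2 ratio was 4.58 for Kcnk10 (4 and 158 counts) and 4.82 for Kcnk1 (5 and 219 counts), so both rest on few WT counts.

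Of 14 pump interactors and regulators, 2 of 12 tested were called higher and 1 lower in NSCs (7.08% and 8.76% of all genes). In astrocytes 3 of 14 were at least 2-fold higher and 4 lower (17.3% and 12.8% of all genes). Mlc1, a membrane protein of astrocyte end feet that binds Atp1b1, rose in NSCs (log2 fold change 0.71, edgeR adjusted p = 2.35e-14), and in astrocytes it had 2 counts in WT and 2399 in S89G-DMP1, a ratio with a 95% interval of 292 to 8718. Agrn, which encodes agrin, a matrix proteoglycan that can bind the pump, fell in NSCs (log2 fold change -0.46, edgeR adjusted p = 1.53e-09). Nkain1, of a family that binds the beta1 subunit, rose there by 0.22 on the log2 scale (edgeR adjusted p = 0.0466), and its relative Nkain4 had 1001 counts in WT and 41 in S89G-DMP1 astrocytes. Hepacam, the partner of Mlc1, had 8 and 1015 counts in astrocytes. Among the other cation pumps of this class, 1 of 4 tested in NSCs was called. That was the calcium pump Atp2b4 (log2 fold change -0.76, edgeR adjusted p = 0.00028), which fell there and had a log2 ratio of 2.76 in astrocytes. Atp2b1 and Atp2c1, which did not pass the test in NSCs, had log2 fold changes of -0.15 and -0.08 in NSCs and log2 ratios of 0.58 and -0.31 in astrocytes.

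The authors' own NSC TPM values gave another picture of the spread of Atp1b2. Its TPM was 52.5, 55.5 and 166 in WT and 75.7, 59.4 and 154 in S89G-DMP1, so library 3 of each genotype stood above the others. The counts of Atp1b2 in the same libraries were 555, 593 and 572 in WT and 572, 574 and 543 in S89G-DMP1, and showed no such split. Atp1b1 also had 1 TPM value apart, 71.1 in library 2 of WT against 99.5 to 113 in the other 5, where its counts were 258 against 207 to 255. Atp1b3 had a TPM of 175 in library 2 of S89G-DMP1 against 139 to 155 in the other 5. Fxyd6 had 101 in library 3 of WT against 83.8 to 93.0 in the other 5. The same libraries were the highest of these 2 genes in CPM.

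Genes whose CPM followed a member most closely over the 6 NSC libraries were listed as a description, as the highest of 8082 genes on 6 points that share genotype and library. For Atp1b1 these were Aatf and Cnot2 (Pearson r of 0.996 each), for Atp1b2 Dennd4c (0.978), for Atp1b3 Gpr180 and Trub1 (0.981 each), and for Fxyd6 Bax (0.986) and Pym1 (0.973).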

How the data were processed

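RNA sequencing of 8 libraries was examined. The members and gene lists were chosen with earlier results of these data known. For astrocytes, the authors removed adapter, undetermined and low-quality reads, aligned with TopHat v2.0.9 and Bowtie v2.0.6, and deposited raw counts and FPKM values, and the genome build is not given in the sources used here. For NSCs, HISAT2, StringTie, featureCounts and GRCm38 are named in the submitters' processing notes, and the authors deposited raw counts and TPM values. All columns were matched to samples by their labels.

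NSC genes were kept by filterByExpr, TMM factors were applied, and counts were fitted with edgeR 4.0.16 (quasi-likelihood test, two-sided, Benjamini-Hochberg adjustment over 11194 genes, threshold 0.05) in R 4.3.3, with genotype as the only term. DESeq2 1.42.0 and limma 3.58.1 were alternatives. Astrocyte log2 ratios used TMM factors and 2 counts as prior, over 15680 genes that reached 10 counts in 1 or both libraries. Intervals were exact, at 95%, for counting error only. Gene names and positions came from GENCODE on GRCm38, which named 47224 of 47729 NSC and 39973 of 40562 astrocyte genes. Promoters came from RefSeq. Some genes that the rules name are not reported here.

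Named genes were the members, other subunits with 10 counts in any library, up to 3 genes per list with the largest called change in NSCs or the largest ratio in astrocytes among genes with at least 50 counts, and the 2 genes closest to each member. Overlap partners, markers and other genes named were chosen after their values were seen. The replicate numbers did not pair the NSC libraries, with correlations of same-numbered deviations of 0.0546, 0.0137 and 0.0001.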

Additional observations from a re-analysis of the deposited data

Results flagged for a closer look

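The values of Atp1b3 had opposite signs in the 2 cell types, although it was not called in NSCs. Its log2 fold change was 0.14 (SE 0.08) in NSCs, where every S89G-DMP1 library lay above every WT library, and its log2 ratio was -0.80 in astrocytes, or -0.51 with library size alone. This difference between NSCs and astrocytes was not tested, since the astrocytes had 1 library per genotype.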

How the results depend on the processing

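Called genes in NSCs numbered 1773 and came to 735 with DESeq2, 145 with limma on log2(TPM + 1) and 116 on log2(TPM + 0.1); the cause was not tested. They ranged from 1363 to 1659 when 1 library was left out. Members called numbered 0 under all 14 alternatives. The replicate block gave 1845 calls and called 0 members. Without 1 library the members' log2 fold changes ranged from -0.05 to 0.06 for Atp1b1, -0.01 to 0.07 for Atp1b2, 0.08 to 0.18 for Atp1b3 and -0.13 to -0.02 for Fxyd6. With the TPM fits Atp1b1 and Atp1b2 came to 0.25 and 0.17. In astrocytes 4723 genes were at least 2-fold apart, and 3066 with at least 10 counts required in both libraries, which tests fewer genes. With library size alone Atp1b1, Atp1b2 and Atp1b3 had log2 ratios of 1.42, 3.56 and -0.51. Beta shares in WT NSCs with the authors' TPM were 28.2%, 25.8% and 46.01% for Atp1b1, Atp1b2 and Atp1b3. Depth limits the astrocyte ratio of Fxyd6, which rests on 25 counts in WT and 211 in S89G-DMP1.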
